A study of Mus musculus with 6 samples.

Results

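The transcripts of glucose uptake, glycolysis, lactate handling and pyruvate entry into the mitochondrion were compared between gastruloids grown from Control and *T-UCstem1* knockdown cells. A total of 33 genes were chosen by function from the 35565 gene identifiers of the series: 2 glucose transporters, 17 genes that carry or adjust the steps from hexokinase to phosphoglycerate mutase and 4 of enolase and pyruvate kinase, then 2 lactate dehydrogenase genes, 2 lactate transporters, and 2 subunits and 4 kinases of pyruvate dehydrogenase. All 33 were found by their Ensembl identifier, and all 33 passed the filter on low counts together with the rest of the 15110 genes tested.

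Glycolysis splits glucose into pyruvate, and pyruvate is then either reduced to lactate and exported or carried into the mitochondrion and turned into acetyl-CoA by pyruvate dehydrogenase. Most steps can be carried by several isoenzymes, products of different genes that catalyse the same reaction with different kinetics and in different tissues. Pluripotent cells and the tail bud mesoderm of the embryo are known for a high glycolytic rate, and the isoenzymes used are known to shift as cells differentiate.

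Gastruloids are aggregates of mouse embryonic stem cells that, after a pulse of the WNT agonist CHIR99021, elongate and form an anteroposterior axis. The libraries were bulk RNA-seq of whole gastruloids at day 5, with 3 libraries of Control and 3 of KD-1, and both groups came from the TBV2 embryonic stem cell line of the 129/SvP strain and received the same pulse. KD-1 is 1 clone in which the lncRNA *T-UCstem1* is silenced, and Control (Ctrl in the plots) is a non-targeting line in the study and is labelled WT. Each group rests on a single line, so a difference between lines and the effect of the silencing cannot be told apart. Nothing in the labels says that the libraries of a group came from separate cultures beyond calling them biological replicates, so p-values measure the spread between these libraries, which may be technical. The silenced transcript itself was not analysed here.

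The libraries held between 20982249 and 85561026 counts, and they are named low, middle and high by their depth within their group, in which order all values are given. The Ctrl middle library stood apart: its chi-square per degree of freedom over genes was 34.0 and 34.3 against the other Control libraries, whereas these differed from each other by 14.4 and the KD-1 pairs by 4.67 to 10.5. Without it 18 of the 33 genes were called in place of 16: no call was lost, and *Hk1* and *Pfkfb1* were added. The cell type markers differed widely between the groups. Their calls, defined below, stand beside the 37.7% of all genes tested that were called. Pluripotency markers were called higher for 8 of 10 genes. Their summed level was 810 to 889 CPM (counts scaled by library size and TMM) in Control and 2561 to 2654 CPM in KD-1. This list mixes naive markers with *Pou5f1* and *Sox2*, which are not specific to the naive state. *Pou5f1* had means of 269 CPM in Control and 661 CPM in KD-1, and *Sox2* 114 and 531 CPM. *Tbx3* and *Dppa3* were not called, at log2 fold changes of 0.15 and 0.49. Paraxial mesoderm and somite markers were called lower for 10 of 10 genes, with sums of 533 to 612 CPM in Control and 45.6 to 46.0 CPM in KD-1. Neural markers were called higher for 8 of 10 genes (170.2 to 176 and 468 to 488 CPM). Feeder fibroblast markers were called higher for 1 and lower for 4 of 6 tested (22.7 to 26.6 and 2.23 to 2.58 CPM). The highest of them in Control were *Pdgfrb* (means of 15.3 and 0.516 CPM) and *Col3a1* (5.44 and 0.120 CPM). Whether this list tracks feeder cells in these samples was not tested. Definitive endoderm markers were called higher for 3 and lower for 3 of 6 (158 to 187 and 337 to 341 CPM). Endothelial and blood markers were called higher for 2 and lower for 1 of 3 (17.1 to 18.9 and 33.2 to 35.4 CPM). No marker of any list was at 0 in all libraries. In bulk samples fewer cells of a type and less RNA per cell cannot be told apart, and the part of cell composition in the values below was not tested.

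KD-1 differed from Control in 16 of the 33 genes, of which 7 were called higher and 9 lower. A call means an adjusted p under 0.05 in edgeR's quasi-likelihood test and a change of at least 1.5-fold in either direction. Over all genes tested the same call was met by 37.7%, 19.7% higher and 18.1% lower. The genes called higher were the glucose transporter *Slc2a3*, the phosphofructokinase *Pfkp*, its activator-forming enzyme *Pfkfb3*, the lactate dehydrogenase *Ldhb*, the pyruvate dehydrogenase subunit *Pdha1* and the kinases *Pdk1* and *Pdk4*. Those called lower were *Slc2a1*, *Pfkl*, *Pfkfb4*, *Tpi1*, *Pgk1*, *Eno3*, *Ldha*, *Slc16a3* and *Pdk2*. A further 9 genes had an adjusted p under 0.05 with a change of less than 1.5-fold, which makes 25 of 33 without the fold limit, against 63.5% of all genes tested. The level of 27 genes did not overlap between the groups, against 70.6% of all genes tested, and 6 overlapped. Of the 27, 8 were higher in KD-1 (35.3% of all genes tested) and 19 lower (35.3%). On the log2 scale the median change of the 33 genes was -0.29, against -0.01 for all genes tested, and the median size of change was 0.57, against 0.49. The summed share of the 33 genes in all counts was 1.09%, 1.14% and 1.16% in Control and 1.01%, 1.01% and 0.983% in KD-1.

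**Figure D1:**
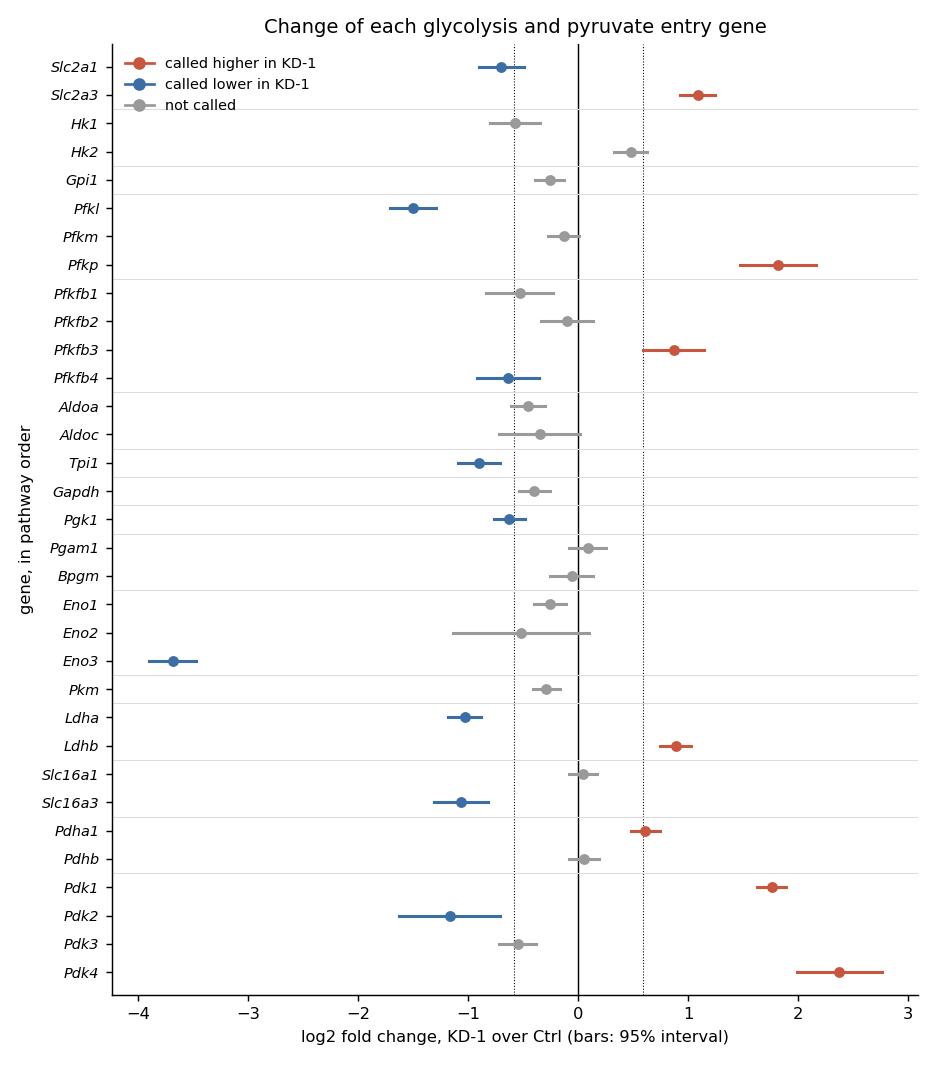
Log2 fold change of KD-1 over Control (horizontal axis) for the 33 genes in pathway order (vertical axis). Points are edgeR estimates with 95% intervals, dotted lines mark a 1.5-fold change, and grey lines divide the steps. The 7 genes called higher are red, the 9 called lower are blue, and the steps of glucose uptake, phosphofructokinase, its regulators, lactate dehydrogenase and pyruvate dehydrogenase kinase each hold both colours.

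The glucose transporters GLUT1 and GLUT3, encoded by *Slc2a1* and *Slc2a3*, bring glucose across the plasma membrane, and GLUT3 is known for its higher affinity. *Slc2a3* (chr6:122704768-122778599 on GRCm39) stood at 407, 345 and 398 CPM in Control and 795, 819 and 825 CPM in KD-1. Every KD-1 library was well above every Control library. The means were 383 ± 33.1 and 813 ± 15.9 CPM (SD, n = 3), a log2 fold change of 1.08 (SE 0.071) with an adjusted p of 3.7e-06 in edgeR, and 1.01 without the Ctrl middle library. *Slc2a1* (chr4:118965908-118996365) went the other way, with 173, 219 and 183 CPM in Control and 124, 115 and 116 CPM in KD-1. Its log2 fold change was -0.70 (SE 0.088) in edgeR (adjusted p = 0.00017). The Ctrl middle library was the highest of the 6, and without it the estimate was -0.59, still called. Per kb of transcript, *Slc2a3* was the more abundant transporter in both groups (96.8 against 43.1 CPM per kb in Control, 205 against 26.6 in KD-1).

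Hexokinase traps glucose in the cell as glucose 6-phosphate. Neither of its genes was called. *Hk2*, the isoenzyme known from growing and insulin-sensitive tissues, was the more abundant per kb and stood at 105, 91.9 and 106 CPM in Control and 138, 140.2 and 143 CPM in KD-1. These groups did not overlap, and the log2 fold change was 0.48 (SE 0.066, adjusted p = 0.00029, edgeR). *Hk1*, the widely expressed isoenzyme, had means of 21.3 ± 2.39 and 14.4 ± 0.840 CPM and an estimate of -0.57 (SE 0.098), with an adjusted p of 0.00096 in edgeR, just inside the 1.5-fold limit at 1.49-fold lower. It passed the call in 4 of the alternatives, among them without the Ctrl middle library (-0.62). Glucose phosphate isomerase, which makes fructose 6-phosphate, has a single gene here: *Gpi1* stood at 311, 342 and 329.5 CPM in Control and 274, 280.3 and 267 CPM in KD-1, and it was not called (log2 fold change -0.26, SE 0.057, adjusted p = 0.004, edgeR).

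Phosphofructokinase commits the sugar to glycolysis and is a tetramer of liver, muscle and platelet type subunits, encoded by *Pfkl*, *Pfkm* and *Pfkp*. In KD-1 the liver type was 2.83-fold lower and the platelet type 3.52-fold higher. *Pfkl* (chr10:77818084-77845922) stood at 104, 134 and 117 CPM in Control and 43.3, 40.8 and 41.3 CPM in KD-1. The KD-1 libraries were close together and all below the Control ones, among which the middle library was the highest. The log2 fold change of *Pfkl* was -1.50 (SE 0.093, adjusted p = 2.6e-06, edgeR), and -1.41 without the Ctrl middle library. *Pfkp* (chr13:6629798-6698970) showed 51.9, 33.8 and 52.8 CPM in Control and 156, 167 and 165 CPM in KD-1, and here the Ctrl middle library was the lowest. Its estimate of 1.82 (SE 0.15, adjusted p = 1.5e-05, edgeR) became 1.63 without that library. *Pfkm* had means of 51.5 ± 2.39 and 47.1 ± 0.673 CPM and was not called (log2 fold change -0.13, SE 0.061, adjusted p = 0.089, edgeR). The loci of both called genes overlap a gene on the other strand. *Cfap410*, over *Pfkl*, was also lower at 13.3 and 5.80 CPM, and *Pitrm1*, over *Pfkp*, was not called (-0.23). Whether the counting used strand is not given in the sources used here.

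The promoters of these opposed subunits are shown because the genes share a reaction and moved apart. Each is the 250 bases before the most upstream RefSeq start on GRCm38.p6, at chr10:78009808-78010057 on the minus strand for *Pfkl* and chr13:6648772-6649021 on the minus strand for *Pfkp*, read 5′ to 3′ along the gene. Capitals mark matches on either strand to ACGTG or GCGTG, the core letters of the site of hypoxia-inducible factors, to the E-box CACGTG of MYC family proteins, which itself holds ACGTG on both strands, and to the half-site AAGGTCA of estrogen-related receptors.
Pfkl: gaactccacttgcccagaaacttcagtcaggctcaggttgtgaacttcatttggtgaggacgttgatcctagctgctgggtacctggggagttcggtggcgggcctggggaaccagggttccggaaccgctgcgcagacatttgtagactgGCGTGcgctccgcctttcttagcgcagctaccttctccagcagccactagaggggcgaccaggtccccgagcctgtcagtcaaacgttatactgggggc
Pfkp: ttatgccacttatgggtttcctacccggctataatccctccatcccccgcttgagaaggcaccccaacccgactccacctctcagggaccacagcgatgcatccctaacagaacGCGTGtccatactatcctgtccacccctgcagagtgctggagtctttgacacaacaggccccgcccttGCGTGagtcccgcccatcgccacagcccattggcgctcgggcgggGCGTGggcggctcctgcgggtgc
The *Pfkl* window held 1 GCGTG match and the *Pfkp* window 3, and neither held any of the other motifs.

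The PFKFB enzymes make and break fructose 2,6-bisphosphate, the activator of phosphofructokinase. *Pfkfb3*, the member known for its strongly activator-forming balance, stood at 23.9, 17.6 and 25.1 CPM in Control and 40.1, 41.1 and 40.5 CPM in KD-1. All 3 KD-1 libraries lay above the Control ones, the lowest of which was the middle library. The log2 fold change was 0.87 (SE 0.12, adjusted p = 3e-04, edgeR), and 0.72 without that library. *Pfkfb4* was low, at 6.51, 6.28 and 6.50 CPM in Control and 4.60, 3.91 and 3.92 CPM in KD-1. It was called lower at -0.64 (SE 0.13) in edgeR (adjusted p = 0.0021), close to the limit, and lost the call with library size scaling alone and without the KD-1 middle or the KD-1 high library, each time at -0.58. *Pfkfb1* was not called at -0.53 (adjusted p = 0.0073, edgeR) but was without the Ctrl middle library, at -0.67. *Pfkfb2* had overlapping groups and an estimate of -0.10, while the median gene of its chromosome, 1, was at 0.49.

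**Figure D2:**
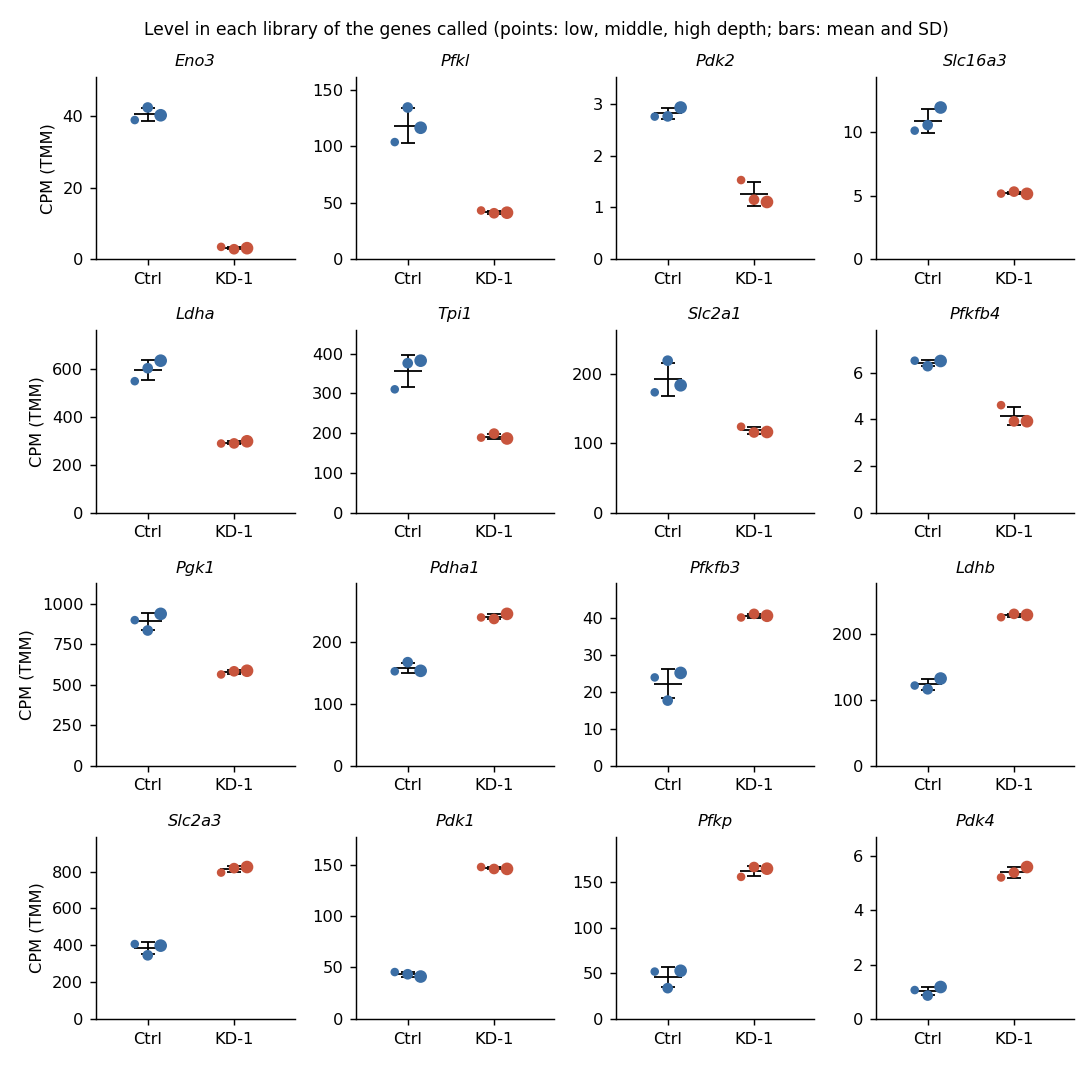
Level in CPM, scaled by TMM (vertical axis, from 0), of the 16 called genes in the Control (Ctrl, blue) and KD-1 (red) libraries, ordered by log2 fold change from *Eno3* to *Pdk4*. Points grow with the depth of the library, and black bars are the mean and SD of 3 libraries. In none of the 16 panels do the groups overlap, and the Ctrl middle library is the Control point furthest from KD-1 for several of them, among them *Slc2a1*, *Pfkl*, *Pfkp* and *Pfkfb3*.

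Aldolase, triose phosphate isomerase, glyceraldehyde 3-phosphate dehydrogenase and phosphoglycerate kinase turn the phosphorylated sugar into 3-phosphoglycerate. All 4 of the abundant genes of these steps were below Control in every KD-1 library, and 2 were called. *Tpi1* (chr6:124787549-124791273) stood at 310.3, 376 and 382 CPM in Control and 189, 199 and 187 CPM in KD-1. With means of 356 ± 39.9 and 191 ± 6.54 CPM, its log2 fold change was -0.90 (SE 0.084, adjusted p = 2.9e-05, edgeR). *Pgk1*, the X-linked enzyme of the first ATP-forming step, showed 900.2, 836 and 939 CPM in Control and 564, 584 and 587 CPM in KD-1. The estimate of -0.62 (SE 0.060, adjusted p = 3.5e-05, edgeR) lay near the 1.5-fold limit, and the call was lost with library size scaling alone (-0.57) and with at least 10 counts required in every library (-0.58). *Aldoa*, the main aldolase, was not called at 387, 448 and 424 CPM in Control and 318, 302 and 298 CPM in KD-1 (log2 fold change -0.46, SE 0.067, adjusted p = 4e-04, edgeR). *Gapdh*, often used as a reference gene, stood at 3860, 4236 and 4239 CPM in Control and 3196, 3161 and 3001 CPM in KD-1. Its groups did not overlap, and its estimate of -0.40 (SE 0.062) had an adjusted p of 0.00053 in edgeR with a change under 1.5-fold. The annotation holds 185 near-identical copies of *Gapdh*, which took 1.18% of the summed counts, and with them added the estimate was -0.38. *Aldoc*, the brain-type aldolase, was low at 7.19 and 5.63 CPM and was not called (-0.35, SE 0.16, adjusted p = 0.087, edgeR), with -0.46 to -0.16 when each library was left out, the latter without the Ctrl middle library.

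Phosphoglycerate mutase did not follow its neighbours. *Pgam1* stood at 308, 351 and 303 CPM in Control and 361, 332 and 330.2 CPM in KD-1. The groups overlapped, and the log2 fold change of 0.09 had a 95% interval of -0.08 to 0.25 (edgeR). *Bpgm*, which makes 2,3-bisphosphoglycerate, also overlapped, at -0.06 with an interval of -0.25 to 0.14.

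Enolase, which forms phosphoenolpyruvate, held the largest change of the 33 genes. *Eno3*, the isoenzyme known from skeletal and heart muscle, lies on chromosome 11 (chr11:70546593-70553340) and stood at 38.8, 42.3 and 40.1 CPM in Control and 3.48, 2.83 and 3.12 CPM in KD-1. Each Control library was more than 10 times each KD-1 library. The means of 40.4 ± 1.77 and 3.14 ± 0.328 CPM gave a 12.9-fold lower level (log2 fold change -3.69, SE 0.095), with an adjusted p of 2.7e-08 in edgeR. Its change was the 371st largest in size of the 15110 genes tested, and leaving out each library in turn gave -3.74 to -3.61. The muscle markers were mixed. Of 10 skeletal muscle markers 3 were tested, of which 1 was called higher and 2 lower, their sums were 76.6 to 88.9 CPM in Control and 57.6 to 60.6 CPM in KD-1, and *Myod1* and *Myog* did not pass the filter. Of 10 cardiac markers 5 were tested, 2 called higher and 3 lower, with sums of 8.59 to 10.04 and 8.02 to 9.31 CPM. The somite markers given above moved in the direction of *Eno3*, and their part in its change was not tested.

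The promoter of *Eno3* is shown as that of the most changed gene, with the same marks, at chr11:70656926-70657175 on the plus strand of GRCm38.p6.
Eno3: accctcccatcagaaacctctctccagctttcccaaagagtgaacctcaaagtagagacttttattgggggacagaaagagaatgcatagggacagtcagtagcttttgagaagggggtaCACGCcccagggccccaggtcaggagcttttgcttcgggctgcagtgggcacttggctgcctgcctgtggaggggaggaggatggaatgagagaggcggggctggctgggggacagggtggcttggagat
It held a single GCGTG match, on the opposite strand.

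*Eno1*, the widely expressed enolase, had means of 758 ± 21.5 and 635 ± 44.5 CPM and was not called, with a log2 fold change of -0.26 (SE 0.065, adjusted p = 0.0076, edgeR). Its value is uncertain, since near-identical copies took 63.4% of the summed counts, nearly all of them in the copy *Eno1b*. *Eno1b* stood at 1346 ± 106 CPM in Control and 1032 ± 36.7 CPM in KD-1, at -0.38, and with all copies added the estimate of *Eno1* was -0.32. *Eno2*, the neuronal enolase, was near the bottom of the range, at 1.96 ± 0.555 and 1.40 ± 0.301 CPM, and its groups overlapped (-0.52, SE 0.27, adjusted p = 0.12, edgeR). Leaving out each library in turn gave -0.70 to -0.30, and *Eno2* was called lower without the Ctrl low library (-0.70, adjusted p = 0.042, edgeR). With all libraries it was not called, beside 8 of 10 neural markers called higher.

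Pyruvate kinase makes pyruvate and ATP. *Pkm* stood at 1966, 2047 and 2139 CPM in Control and 1678, 1680 and 1680 CPM in KD-1. All KD-1 libraries were below Control, and the log2 fold change of -0.29 (SE 0.055, adjusted p = 0.0017, edgeR) was under 1.5-fold. Counts per gene do not separate its M1 and M2 splice forms.

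Lactate dehydrogenase, a tetramer of A and B subunits, interconverts pyruvate and lactate, and the A subunit is known to favour lactate and the B subunit pyruvate. The subunits moved in opposite directions. *Ldha* (chr7:46490899-46505061) stood at 551, 605 and 637 CPM in Control and 289, 289.8 and 299 CPM in KD-1. Its means were 597 ± 43.5 and 293 ± 5.28 CPM, a 2.04-fold lower level with a log2 fold change of -1.03 (SE 0.066, adjusted p = 3e-06, edgeR). *Ldhb* (chr6:142435672-142454586) stood at 121, 116 and 132 CPM in Control and 225, 229.9 and 228 CPM in KD-1. It was 1.85-fold higher (0.89, SE 0.062, adjusted p = 5.3e-06, edgeR). The KD-1 libraries of both genes lay within 10 CPM of each other, and without the Ctrl middle library the estimates were -1.02 and 0.84.

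The promoters of this opposed pair are shown with the same marks, at chr7:46845554-46845803 on the plus strand for *Ldha* and chr6:142507958-142508207 on the minus strand for *Ldhb* (GRCm38.p6).
Ldha: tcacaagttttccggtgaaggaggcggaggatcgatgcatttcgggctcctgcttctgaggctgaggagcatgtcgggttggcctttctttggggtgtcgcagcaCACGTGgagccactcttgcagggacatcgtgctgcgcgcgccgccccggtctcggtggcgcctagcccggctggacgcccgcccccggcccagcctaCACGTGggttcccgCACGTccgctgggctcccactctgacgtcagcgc
Ldhb: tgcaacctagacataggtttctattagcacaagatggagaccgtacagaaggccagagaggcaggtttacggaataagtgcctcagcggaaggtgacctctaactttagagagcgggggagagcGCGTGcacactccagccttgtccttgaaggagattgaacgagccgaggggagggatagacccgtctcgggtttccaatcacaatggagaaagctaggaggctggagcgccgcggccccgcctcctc
The *Ldha* window held 5 ACGTG matches, 4 of them inside its 2 E-boxes counted on both strands, and no GCGTG. The *Ldhb* window held 1 GCGTG match and none of the other motifs.

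Lactate leaves and enters cells through the monocarboxylate transporters MCT1 and MCT4, encoded by *Slc16a1* and *Slc16a3*. *Slc16a3*, the form known for export from glycolytic cells, stood at 10.1, 10.6 and 12.0 CPM in Control and 5.18, 5.33 and 5.16 CPM in KD-1. It was 2.09-fold lower (-1.07, SE 0.11, adjusted p = 4.4e-05, edgeR). Its locus overlaps *Csnk1d*, not called at -0.42, and *Ccdc57*, called lower at -1.06. *Slc16a1* was far more abundant, at 29.2 and 30.1 CPM per kb against 2.32 and 1.11 for *Slc16a3*, and its groups overlapped, with a log2 fold change of 0.04 and a 95% interval of -0.08 to 0.17 (edgeR).

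Pyruvate dehydrogenase turns pyruvate into acetyl-CoA, and its E1 component is built from the products of *Pdha1* and *Pdhb*. *Pdha1*, on the X chromosome, stood at 153, 168 and 154 CPM in Control and 240.3, 238 and 246 CPM in KD-1. The groups did not overlap, and the log2 fold change was 0.61 (SE 0.057, adjusted p = 2.9e-05, edgeR). It was close to the limit: the call was lost without the Ctrl low library (0.58). *Map3k15*, which overlaps it, was called higher too (0.82). *Pdhb* was not called, at 0.05 with a 95% interval of -0.08 to 0.19 (edgeR).

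The 4 pyruvate dehydrogenase kinases phosphorylate E1 and switch the complex off. *Pdk1* and *Pdk4* were higher in KD-1, *Pdk2* was lower, and *Pdk3* was not called. *Pdk1* (chr2:71703488-71734202) stood at 45.5, 43.4 and 41.2 CPM in Control and 148, 146 and 146 CPM in KD-1. Its libraries lay close together within each group, and it was 3.38-fold higher (1.76, SE 0.058, adjusted p = 8.8e-08, edgeR), with 1.76 without the Ctrl middle library. *Pdk4*, known as the kinase of fasting and fatty acid use, was low at 1.06, 0.859 and 1.17 CPM in Control and 5.20, 5.38 and 5.58 CPM in KD-1. The 5.18-fold change (2.37, SE 0.17, adjusted p = 6.1e-06, edgeR) was the second largest of the 33 genes. *Pdk2* was the reverse, with 2.75, 2.75 and 2.92 CPM in Control and 1.53, 1.15 and 1.11 CPM in KD-1 (-1.17, SE 0.20, adjusted p = 0.00098, edgeR). *Samd14*, which overlaps *Pdk2*, was also called lower (-1.36). *Pdk3*, X-linked, had means of 38.3 ± 1.25 and 26.2 ± 1.92 CPM and a log2 fold change of -0.55 (SE 0.075, adjusted p = 0.00025, edgeR), and it passed the call without the KD-1 low library (-0.59).

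The promoter of *Pdk1*, the kinase of highest level per kb in KD-1, is shown with the same marks, at chr2:71872974-71873223 on the plus strand of GRCm38.p6.
Pdk1: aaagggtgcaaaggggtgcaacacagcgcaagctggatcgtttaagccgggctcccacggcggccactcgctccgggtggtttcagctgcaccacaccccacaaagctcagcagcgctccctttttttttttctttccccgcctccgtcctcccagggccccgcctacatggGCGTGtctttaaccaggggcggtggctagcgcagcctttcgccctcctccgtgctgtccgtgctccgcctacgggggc
It held a single GCGTG match.

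The balance between isoenzymes was then computed as each gene's share of the summed level of its step, in CPM per kb of canonical transcript. Of the 19 shares, 17 did not overlap between the groups, where 70.6% of all genes tested did not overlap in level. The shares of a step are parts of 1 sum and not independent, so a change in 1 gene moves the others. *Pfkfb2*, for example, overlapped in level but not in share. With 3 libraries against 3, the 2-sided exact permutation test cannot go below p = 0.1, and these 17 shares reached it (0.112 after Benjamini-Hochberg adjustment over the 19), so the shares are given as values. The largest share of phosphofructokinase lay with *Pfkl* in Control and with *Pfkp* in KD-1. *Pfkl* made up 51.0, 61.2 and 52.5% of the step in Control and 18.0, 16.5 and 16.8% in KD-1. *Pfkp* made up 24.3, 14.6 and 22.6% in Control and 61.7, 64.2 and 63.7% in KD-1, a difference of 42.7 percentage points, or 39.7 without the Ctrl middle library. In pyruvate dehydrogenase kinase the leading gene differed per kb of canonical transcript only, since *Pdk1* led *Pdk3* in Control too when levels were not divided by length (43.4 against 38.3 CPM) or were divided by all annotated exons (4.92 against 4.65 CPM per kb). Per kb of canonical transcript, *Pdk3* held 61.5% ± 1.33 (SD, n = 3) in Control and 26.3% ± 1.26 in KD-1, and *Pdk1* held 32.6% ± 1.60 and 68.8% ± 1.28. The share of *Ldha* went from 82.4% ± 1.04 to 55.3% ± 0.467, so that *Ldha* remained the more abundant subunit in both groups. *Slc2a1* made up 30.9% ± 4.55 of the transporters in Control and 11.5% ± 0.596 in KD-1, and *Hk1* 27.7% ± 2.12 and 15.7% ± 0.952 of hexokinase. Among the PFKFB enzymes the share of *Pfkfb3* was 18.7% ± 1.12 in Control and 34.7% ± 0.631 in KD-1. Without division by length it was 33.3% and 53.0%. *Eno3* was 6.54% ± 0.169 of enolase in Control and 0.646% ± 0.0242 in KD-1, a difference of -5.90 percentage points. The copies of *Eno1* are left out of this sum, and with near-identical copies added the difference was -2.20. The exceptions were *Aldoa*, at about 99% of aldolase in both groups (exact permutation p = 0.5), and *Eno2* (exact permutation p = 0.7).

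**Figure D3:**
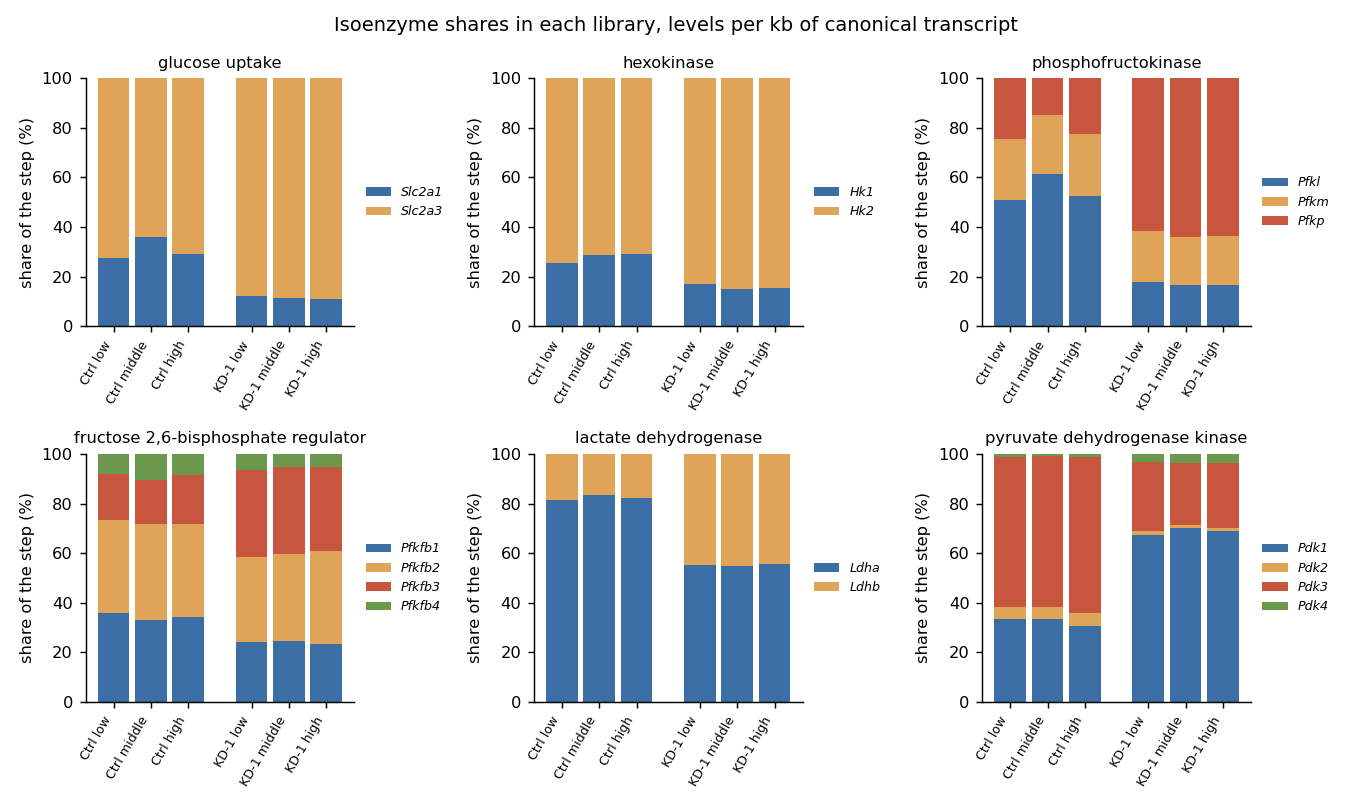
Share of each isoenzyme in the summed level of its step (vertical axis, percent, levels in CPM per kb of canonical transcript) in each of the 6 libraries, for 6 steps with several genes. Each bar is 1 library. The platelet type *Pfkp* is 14.6% to 24.3% of phosphofructokinase in the Control libraries and 61.7% to 64.2% in the KD-1 libraries, and the largest share of the kinases is *Pdk3* in Control and *Pdk1* in KD-1 on this length scale, whereas in CPM *Pdk1* is the larger in both groups.

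Changes of isoenzymes in opposite directions partly cancelled in the sums of some steps. Phosphofructokinase as a whole stood at 52.4 ± 2.45 CPM per kb in Control and 59.7 ± 0.872 in KD-1 (SD, n = 3), a ratio of 1.14, although 2 of its 3 genes were called in opposite directions. The summed PFKFB enzymes had a ratio of 0.99 on this length scale. Not divided by length, they summed to 66.4 ± 9.5 CPM in Control and 76.5 ± 1.4 CPM in KD-1, without overlap. Lactate transport had a ratio of 0.989. There only *Slc16a3* was called, and *Slc16a1* held 92.65% of the step in Control and 96.4% in KD-1. The summed transcripts of *Slc2a1* and *Slc2a3* were higher, at 139.9 ± 3.02 and 232 ± 3.03 CPM per kb (ratio 1.66). Those of the pyruvate dehydrogenase kinases were higher too, at 25.3 ± 0.534 and 40.4 ± 1.03 (ratio 1.6). In both of these steps the Control and KD-1 libraries did not overlap. From aldolase to lactate dehydrogenase the ratios were 0.73 for aldolase, 0.537 for triose phosphate isomerase, 0.759 for glyceraldehyde 3-phosphate dehydrogenase, 0.649 for phosphoglycerate kinase, 0.787 for enolase, 0.819 for pyruvate kinase and 0.73 for lactate dehydrogenase, with phosphoglycerate mutase at 1.06 as the exception. Per kb, *Gapdh* was the most abundant of the 33 genes in both groups (2896 ± 154 CPM per kb in Control, 2197 ± 73.2 in KD-1), followed by *Pkm* and *Pgk1*. *Ldha* was next in Control at 376 ± 27.4 and stood at 184 ± 3.33 in KD-1, below *Eno1*, *Slc2a3*, *Aldoa* and *Pgam1*. These levels leave out near-identical copies, which makes the place of *Eno1* uncertain: it stood at 331 ± 9.39 and 277 ± 19.4 CPM per kb, and *Eno1b* alone at 751 and 576.

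**Figure D4:**
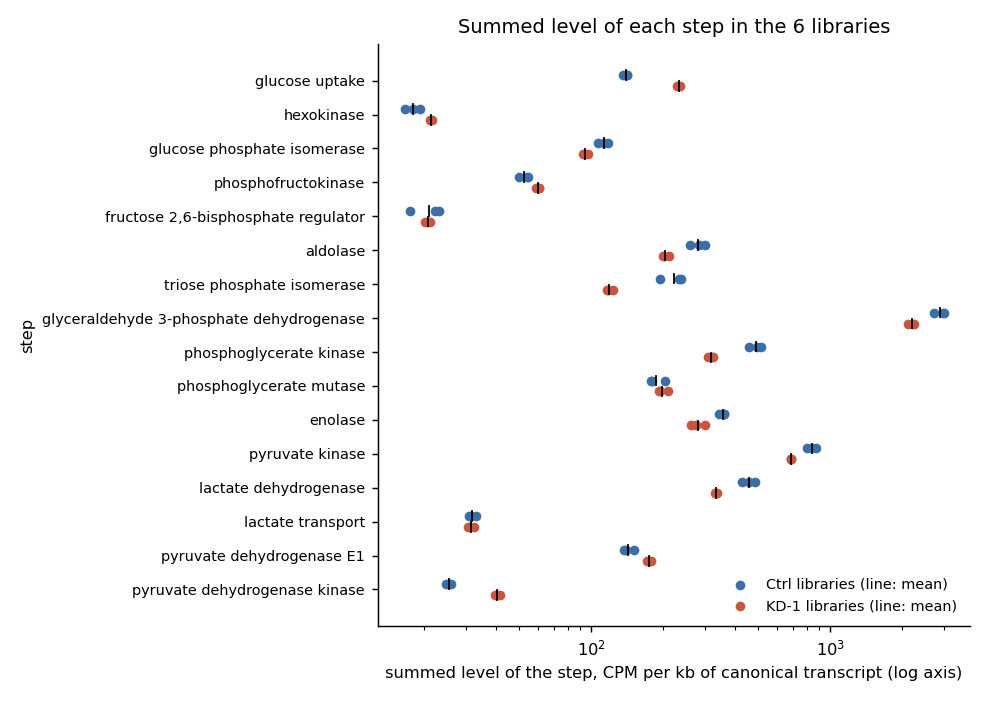
Summed level of each of 16 steps (vertical axis) in CPM per kb of canonical transcript on a log axis (horizontal). Blue points are Control and red points KD-1 libraries, and the black line is the mean of 3 libraries. Glucose uptake (ratio 1.66) and the pyruvate dehydrogenase kinases (ratio 1.6) lie to the right in KD-1, and triose phosphate isomerase (ratio 0.537) is shifted most to the left. The groups overlap in lactate transport, the PFKFB enzymes and phosphoglycerate mutase.

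The genes are spread over the genome, with 8 of the 33 on chromosome 6. Of these 8, *Slc2a3*, *Ldhb* and *Pdk4* were called higher and *Tpi1* lower, against 37.7% called of all genes tested. *Eno2* (chr6:124736247-124746636), *Tpi1* and *Gapdh* (chr6:125135289-125143518) are close neighbours there, and their log2 fold changes were -0.52, -0.90 and -0.40. On the X chromosome *Pgk1* was called lower and *Pdha1* higher.

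A promoter window was found for 32 of the 33 genes, *Slc2a3* being the one without. ACGTG was present in 12 of the 32 windows (37.5%), against 16.5% of all 27025 promoters of the same length. It was in 5 of the 9 genes called lower (*Slc2a1*, *Pgk1*, *Ldha*, *Slc16a3* and *Pdk2*), in 1 of the 6 called higher (*Pfkfb3*) and in 6 of the 17 not called. GCGTG was present in 17 of 32 (53.1%, against 28.3%), in 5 of the 6 genes called higher (*Pfkp*, *Ldhb*, *Pdha1*, *Pdk1* and *Pdk4*), in 4 of the 9 called lower and in 8 of the 17 not called. The E-box CACGTG was in 4 of 32 (12.5%, against 6.04%), namely *Ldha*, *Pdk2*, *Pfkm* and *Slc16a1*, and AAGGTCA was in *Eno1* alone (3.12%, against 4.04%). These are counts of letters in the windows and not of bound sites.

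Among 27 other isoenzymes, transporters and partners of the pathway, 19 were tested. Of these, 5 were called higher and 4 lower, against 19.7% and 18.1% of all genes tested. The 3 with the largest estimates were *Pdha2*, *Pklr* and *Pgam2*, all at low levels. *Pdha2*, the testis form of E1 alpha, was at 0 in all 3 Control libraries and at 0.286, 0.253 and 0.276 CPM in KD-1. *Pklr*, the liver and red cell pyruvate kinase, stood at 0.0482, 0 and 0 CPM in Control and 0.668, 0.322 and 0.426 CPM in KD-1. *Pgam2*, the muscle mutase, had means of 1.12 ± 0.350 and 0.210 ± 0.0693 CPM (-2.38, SE 0.41, adjusted p = 0.00099, edgeR). Chosen after their values were seen, 5 more abundant genes of this list bear on the steps above. *Tigar*, which breaks down fructose 2,6-bisphosphate, was called higher at 1.44. The pyruvate dehydrogenase phosphatases *Pdp1* and *Pdp2*, which oppose the kinases, were both called higher, at 0.79 and 1.47 (10.9 and 30.5 CPM for *Pdp2*). *Bsg*, the chaperone of the lactate transporters, was called lower at -0.91 (166 ± 22.5 and 88.1 ± 4.33 CPM, adjusted p = 6e-05, edgeR). *Slc2a4*, the insulin-responsive glucose transporter GLUT4, was called lower too, with means of 9.98 ± 1.16 and 3.05 ± 0.311 CPM (-1.71, SE 0.14, adjusted p = 1.3e-05, edgeR).

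The adjoining pathways held fewer calls, a count that depends on the 1.5-fold limit. Of 18 TCA cycle genes, all tested, none was called higher, and the median log2 fold change was -0.20. Changes under the limit went both ways without overlap, in genes named after their values were seen. *Idh3a* was at 0.58 (adjusted p = 2.8e-05, edgeR), just inside the limit, and *Fh1* at 0.49 (adjusted p = 1e-04, edgeR). *Mdh1* was at -0.50 (adjusted p = 9.9e-05, edgeR) and *Idh3g* at -0.45 (adjusted p = 2e-04, edgeR). Only *Sdhb*, a subunit of succinate dehydrogenase, was called lower in edgeR (-0.66, SE 0.14, adjusted p = 0.0027). It stood at 67.1, 104.5 and 86.6 CPM in Control and 57.1, 52.8 and 53.8 CPM in KD-1, highest in the Ctrl middle library. DESeq2, RLE scaling and library size scaling each called 2 genes of the cycle. Of 8 pentose phosphate genes tested, the epimerase *Rpe* was called higher (1.37, on chromosome 1, whose median was 0.49) and the lactonase *Pgls* lower (-1.32). *Pgls* too was highest in the Ctrl middle library (13.9, 24.6 and 15.65 CPM in Control). Gluconeogenesis had 1 call among 4 genes tested, the pyruvate carboxylase *Pcx* (-0.69). Each of these lists had a smaller share of calls than the 37.7% of all genes. No test of the difference was made.

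The lists built around factors known to drive glycolytic genes were mixed in direction, and the HIF list also holds regulators and targets of HIF. Of 18 HIF factors and hypoxia targets outside glycolysis that were tested, 1 was called higher and 4 lower, against 37.7% called of all genes. Their median log2 fold change was -0.30. The largest changes were in the prolyl hydroxylase *Egln2* (-1.07, SE 0.10, adjusted p = 3.1e-05, edgeR), *Epas1*, which encodes HIF2 alpha (1.05), and the target *Ndrg1* (-0.76). The HIF subunits *Hif1a* and *Arnt*, also named after their values were seen, were not called, at 0.24 and 0.12. In the MYC and LIN28 list 3 of 6 genes were called, against 37.7% of all genes. *Myc* stood at 27.4, 41.7 and 28.1 CPM in Control and 6.80, 6.25 and 6.05 CPM in KD-1 (-2.35, SE 0.17, adjusted p = 5.9e-06, edgeR). *Mycn* stood at 20.2, 24.6 and 19.9 CPM in Control and 72.7, 70.7 and 71.0 CPM in KD-1 (1.73, SE 0.090, adjusted p = 9.4e-07, edgeR). Within the family *Myc* was thus lower and *Mycn* higher without overlap, and *Mycl* was called higher at 0.77.

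**Figure D5:**
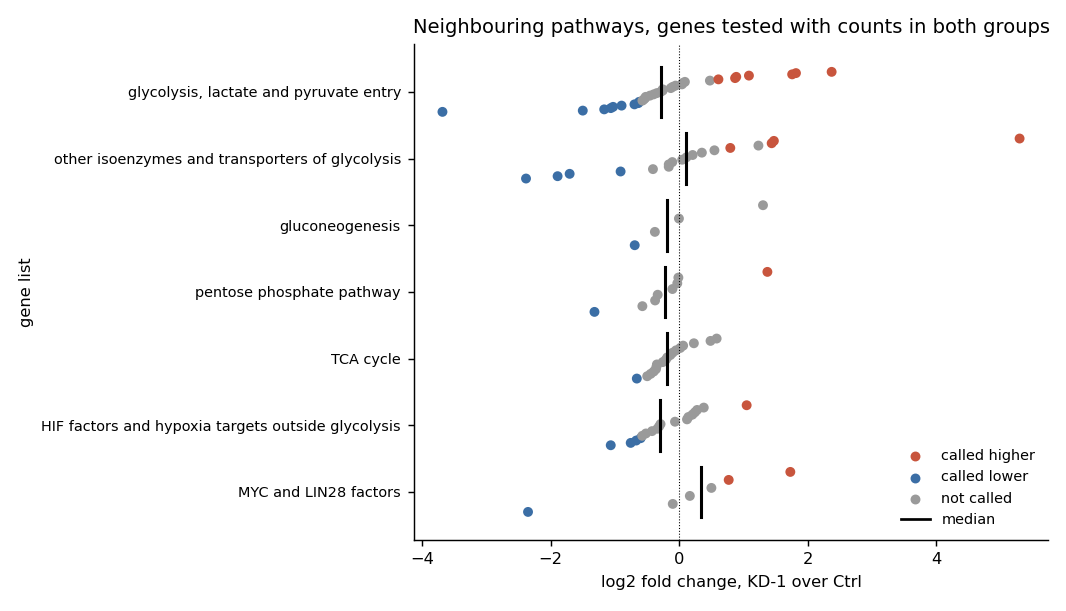
Log2 fold change of KD-1 over Control (horizontal axis) of the tested genes of the 33 gene set and of 6 neighbouring lists (vertical axis). Points are genes, coloured by call, and black lines are medians over the tested genes. *Pdha2*, at 0 in every Control library, is left out of the points. The median is -0.29 for the 33 genes, -0.20 for the TCA cycle with 1 gene called, and 0.33 for the MYC and LIN28 factors with *Myc* far to the left.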

How the data were processed

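Whole mouse gastruloids at day 5 were profiled by bulk RNA-seq, with 3 Control and 3 KD-1 libraries. The study used TruSeq libraries, paired-end sequencing on a NextSeq, bcl2fastq and Salmon (version 1.1) with Gencode transcripts. The authors deposited estimated counts (expected counts) per Ensembl gene as whole numbers, without normalization. The genome build, the strand setting and how transcripts were summed to genes are not given in the sources used here. Salmon shares reads between similar transcripts, so values of genes that overlap others or have near-identical copies are uncertain. The columns name the group and not the replicate number of the labels, so libraries are named by depth. Totals ran from 20982249 to 85561026 counts, and 3 counts correspond to 0.143 CPM in the shallowest library and 0.0351 CPM in the deepest, for counting error only. Library pairs of a group all differed by more than counting noise.

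Counts were tested on all genes with edgeR (version 4.0.16, R 4.3.3): filterByExpr, TMM, a robust quasi-likelihood fit on condition alone, and p-values adjusted by Benjamini-Hochberg over 15110 genes. The biological coefficient of variation was 10.6%. A call needed an adjusted p under 0.05 and a change of at least 1.5-fold, the thresholds of the study. Alternatives used DESeq2 (1.42.0), limma-voom (3.58.1), other scalings, filters and thresholds, each library left out, and counts of near-identical copies (236 found; at least 90% identity for pseudogenes and 95% for protein-coding genes, over at least 50% of the copy) added to their gene. The tests were tried on simulated data. Of the 35565 identifiers, 35222 were in GENCODE vM39 (GRCm39), the source of names and positions. Promoters came from RefSeq on GRCm38.p6, and the 2 builds were not mixed. The 33 genes, the other lists and the tests were chosen with earlier results of these data known. All 33 genes are accounted for, with the value of every library for called genes and for the most abundant gene of a step without a call. In the other lists at most the 3 called genes of largest change are named, except where stated. One of the other pathway lists is not reported here.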

Additional observations from a re-analysis of the deposited data

How the results depend on the processing

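Of 495 recomputed log2 fold changes (33 genes under 15 alternatives), 481 kept their direction and their side of the threshold, 6 lost a call, 7 gained one and 1 changed sign. The number of genes called was 9 (4 higher, 5 lower) with an absolute log2 fold change over 1, and 25 (17 lower) with no fold threshold. It was 12 in a test against a 1.5-fold change (glmTreat), and 14 to 18 under the other settings, leaving out each library included (15 to 18; 6 to 7 higher, 8 to 11 lower). On the log2 scale the median of the 33 genes was -0.23 with library size scaling alone, -0.24 where every library needed 10 counts or more, and -0.32 to -0.25 with each library left out, lowest in size without the Ctrl middle library, while the median of all genes stayed between -0.03 and 0.08. *Bpgm* ran from -0.13 to 0.0095, turning sign without the KD-1 low library. The difference in the share of *Eno2* ran from -0.044 to 0.010 percentage points, turning sign without the Ctrl high (0.010) and the KD-1 low (0.0044) library. Dividing by the length of all annotated exons, an alternative chosen after seeing the data, gave 37.8 points for the share of *Pfkp*, -25.5 for *Slc2a1* and 29.4 for *Pdk1*, and no division by length gave 31.0 for *Pdk1*, which then led *Pdk3* in both groups. DESeq2, RLE scaling and library size alone each called 2 TCA cycle genes. The cause of these shifts was not tested. No paired analysis was possible because the columns do not carry the replicate numbers of the labels. Depth limits the genes near 1 CPM, *Pdk2*, *Pdk4* and *Eno2* among them.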
